A study of Mus musculus with 8 samples.

Results

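Condensin and cohesin are ring-shaped protein complexes that fold and hold chromosomes, and the genes described here encode their core subunits. The 10 genes were taken by name from the deposited count table of 24746 genes: *Smc2*, *Ncapd2*, *Ncapg*, *Ncaph*, *Ncapd3*, *Ncapg2* and *Ncaph2* of the condensins, and *Smc1a*, *Smc3* and *Rad21* of cohesin. *Smc4*, the partner of *Smc2*, hosts one of the deleted microRNA clusters in an intron, so it was not counted among the 10 and its values are given beside them. All 10 genes were among the 12714 that passed the filter on low counts, with 818 to 12655 counts per gene and library.

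RNA was sequenced from pro-B cells sorted from the bone marrow of 4 DKO mice (miR-15a/bfl/fl Vav-Cre) and 4 control mice (miR-15a/b+/+ Vav-Cre), with 1 library per mouse. Every mouse was 10 to 12 weeks old and on a C57BL/6 background, and both groups carried *Vav*-Cre, a recombinase transgene active in hematopoietic cells. In DKO mice this recombinase removes the floxed clusters that encode miR-15a, miR-15b and both copies of miR-16 throughout the hematopoietic system, so the deletion is older than the pro-B cell stage. The question the comparison addresses is which transcripts differ in pro-B cells that lack these microRNAs.

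Condensin I and condensin II share the ATPases SMC2 and SMC4 and differ in their other subunits, which are NCAPD2, NCAPG and NCAPH in condensin I and NCAPD3, NCAPG2 and NCAPH2 in condensin II. Condensin II resides in the nucleus through the cell cycle and begins to compact chromosomes in prophase, whereas condensin I reaches chromosomes after the nuclear envelope breaks down. Cohesin, built on SMC1A, SMC3 and the kleisin RAD21, holds sister chromatids together from replication until anaphase and extrudes chromatin loops, and in pro-B cells such loops bring distant gene segments of the immunoglobulin heavy chain locus close to the recombination center.

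The library totals ranged from 38073065 to 43288133 counts in DKO mice and from 38257907 to 41530921 in control mice. Reads over the 4 deleted microRNA genes numbered 0 in every DKO library and 1 to 5 in the control libraries, which is too few for a test. Reads of Y-linked genes were present in DKO mice 3 and 4 and in control mouse 1, where *Xist*, the RNA of the inactive X chromosome, lay between 0 and 0.143 CPM (counts scaled to library size after TMM normalization), against 68.8 to 94.9 CPM elsewhere. Together, 11 pro-B cell markers reached 32500 to 36000 CPM in DKO and 30100 to 34200 CPM in control libraries. At an adjusted p under 0.05 from edgeR, 2 of the 11 were higher in DKO cells, 0 were lower and 9 did not pass. The 2 were *Kit* (log2 fold change 1.21, adjusted p = 0.0081 from edgeR) and *Il7r* (0.95, adjusted p = 0.00266). Of all tested genes 2.65% were higher. In every library the summed markers of each other cell type lay below the pro-B sum, and they are given further on by group.

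The mature sequences of the deleted microRNAs, taken from RefSeq on GRCm38.p6, are shown because their common seed defines what was searched for in the subunit transcripts. The seed, bases 2 to 8, is in capitals.
mmu-miR-15a-5p: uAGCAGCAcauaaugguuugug
mmu-miR-15b-5p: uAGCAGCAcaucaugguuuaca
mmu-miR-16-5p: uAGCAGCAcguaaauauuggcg
The microRNA miR-15a-5p lies at chr14:61632075-61632096 on the minus strand. The plus-strand position of miR-15b-5p is chr3:69009775-69009796, inside *Smc4*, and miR-16-5p is encoded once in each cluster, at chr14:61631936-61631957 and chr3:69009918-69009939. All 3 mature sequences carry the same seed, AGCAGCA, whose matches in a transcript are TGCTGCTA (8mer), TGCTGCT (7mer-m8) and GCTGCTA (7mer-A1).

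None of the 10 subunit genes differed between DKO and control pro-B cells past the threshold of an adjusted p of 0.05 (quasi-likelihood test of edgeR, Benjamini-Hochberg adjusted over 12714 genes, n = 4 mice per group). Over all tested genes, 2.65% were higher and 1.93% were lower in DKO cells at that threshold. At an unadjusted p under 0.05, *Ncaph*, *Ncapg2* and *Smc3* were higher, which is 3 of 10, and 10.3% of all tested genes were higher at that level. None of the 10 was lower there, against 9.86% of all tested genes, and none had every DKO mouse below every control mouse, against 6.21%. The DKO mean was on the higher side for 9 of the 10 genes, as for 47.6% of all tested genes, with a median log2 fold change of 0.28 over the 10 and -0.01 over all tested genes. In RNA from sorted cells, fewer cells of a type and less RNA per cell cannot be told apart. On the same 10 genes edgeR's likelihood ratio test called 1, *Ncapg2*, DESeq2 called 2, *Ncapg2* and *Ncaph*, and limma-voom called 0. Of all 12714 tested genes, these 3 methods called 519, 674 and 348 higher, in that order.

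**Figure D1:**
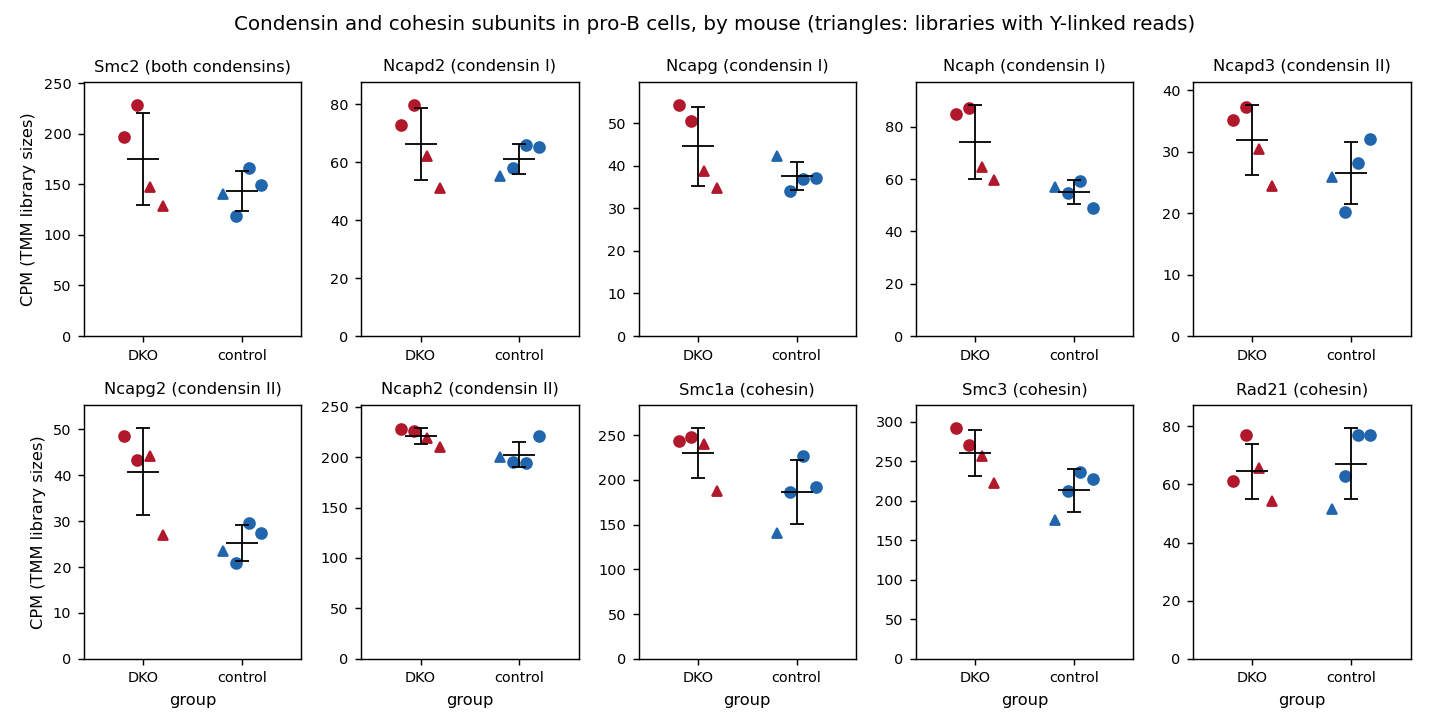
Level of each of the 10 subunit genes in CPM (TMM library sizes) in each of 4 DKO mice (red) and 4 control mice (blue), with mice 1 to 4 from left to right in a group. Triangles are libraries with Y-linked reads, and black bars are the mean and SD. Every DKO mouse lies above every control mouse for *Ncaph* alone, and DKO mouse 4 is the lowest DKO mouse in all 10 panels.

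*Smc2* (chr4:52439221-52488365, GRCm38, plus strand) encodes the ATPase that pairs with SMC4 in both condensins. It was present at 197, 228, 147 and 129 CPM in DKO mice 1 to 4, against 140, 119, 166 and 149 CPM in control mice 1 to 4. DKO mice 1 and 2 lay above every control mouse and DKO mice 3 and 4 lay within the control range. The log2 fold change was 0.29 with a 95% interval from -0.09 to 0.67 (adjusted p = 0.377 from edgeR with Benjamini-Hochberg adjustment, n = 4 each). *Smc4* (chr3:69004738-69034623, plus strand), from whose intron the cluster of miR-15b is removed in DKO mice, had the same layout, with 349, 400, 258 and 248 CPM in DKO mice and 240, 265, 314 and 262 CPM in control mice. Its log2 fold change was 0.22 with a 95% interval from -0.13 to 0.56 (adjusted p = 0.476 from edgeR).

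Among the condensin I subunits, *Ncaph* (chr2:127103810-127133954, minus strand) encodes the kleisin that closes the ring between SMC2 and SMC4. It was at 85.0, 87.3, 64.5 and 59.8 CPM in DKO mice and at 57.1, 54.6, 59.4 and 49.0 CPM in control mice. The lowest DKO mouse thus lay just above the highest control mouse, so the groups did not overlap, as was also the case on the higher side for 7.63% of all tested genes. The DKO level was 1.35-fold that of control cells, a log2 fold change of 0.43 (standard error 0.13, 95% interval 0.14 to 0.72), and it did not pass the threshold (adjusted p = 0.0958 by the quasi-likelihood test of edgeR, n = 4 each). DESeq2 gave *Ncaph* an adjusted p of 0.0379, and over 20 other settings it ranged from 0.0204 to 0.252.

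*Ncapd2* (chr6:125168007-125191586, minus strand) and *Ncapg* (chr5:45669925-45700547, plus strand) encode the HEAT-repeat subunits of condensin I. *Ncapd2* was at 72.7, 79.6, 62.2 and 51.2 CPM in DKO mice and at 55.2, 58.1, 65.8 and 65.2 CPM in control mice. *Ncapg* was at 54.2, 50.6, 38.9 and 34.8 CPM in DKO mice and at 42.2, 34.2, 36.9 and 37.2 CPM in control mice. For both genes DKO mice 1 and 2 were above all control mice and the other DKO mice were not, and DKO mouse 4 was below every control mouse for *Ncapd2*. The log2 fold changes were 0.12 (95% interval -0.17 to 0.41) for *Ncapd2* and 0.25 (95% interval -0.07 to 0.57) for *Ncapg*, with adjusted p of 0.663 and 0.376 from edgeR. An exon of *Ncapg* overlaps *Lcorl* on the other strand, which was at 8.28 to 12.3 CPM, and no source used here states whether the counting used strand.

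Among the condensin II subunits, *Ncapg2* (chr12:116405402-116463531, plus strand), the HEAT-repeat counterpart of *Ncapg*, had the largest fold change of the 10 genes. It was at 48.6, 43.4, 44.2 and 26.9 CPM in DKO mice and at 23.4, 20.9, 29.6 and 27.4 CPM in control mice. DKO mice 1, 2 and 3 lay above every control mouse, while DKO mouse 4 lay below control mice 3 and 4. The DKO level was 1.61-fold that of control cells, a log2 fold change of 0.69 (standard error 0.18, 95% interval 0.29 to 1.08), with an adjusted p of 0.0549 by the quasi-likelihood test of edgeR (n = 4 each). This value lies next to the threshold, and the call turned with the setting: the adjusted p was 0.0111 in the likelihood ratio test, 0.00587 in DESeq2 and 0.0126 without DKO mouse 4, whereas leaving out any other mouse gave 0.067 to 0.152. Over all 20 other settings it ranged from 0.00587 to 0.152. The study lists *Ncapg2* among the putative targets of the miR-15 family. That list held genes the study called higher on these mice, with 3' UTR sites predicted by targetscan and miRDB. The direction of *Ncapg2* here is therefore not independent evidence. In the test reported here *Ncapg2* did not pass the threshold, and its annotated 3' UTR held no seed match, as given further on. Why these results differ from the listing was not tested.

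*Ncapd3* (chr9:27030175-27095315, plus strand), the other HEAT-repeat gene of condensin II, was at 35.2, 37.2, 30.5 and 24.4 CPM in DKO mice and at 25.8, 20.1, 28.2 and 32.1 CPM in control mice. DKO mice 1 and 2 were again above all control mice. The log2 fold change was 0.26 (95% interval -0.10 to 0.63, adjusted p = 0.407 from edgeR). *Ncaph2* (chr15:89355719-89372850, plus strand), the kleisin of condensin II, was at 228, 226, 219 and 210 CPM in DKO mice and at 200, 195, 194 and 221 CPM in control mice, and only control mouse 4 reached into the DKO range. Its log2 fold change was 0.13, with the narrowest interval of the 10 genes (-0.04 to 0.30, adjusted p = 0.395 from edgeR). Exons of *Ncaph2* overlap *Sco2*, with 0 counts in all 8 libraries, and *Tymp*, at 0.27 to 1.05 CPM, both on the other strand. No source used here states how reads in shared bases were assigned. A count of 0 therefore does not tell an unexpressed gene from one whose reads were left uncounted.

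Cohesin's ATPases had similar values to each other. *Smc3* (chr19:53600396-53645831, plus strand) was at 292, 271, 257 and 223 CPM in DKO mice, against 176, 212, 236 and 228 CPM in control mice. DKO mice 1 to 3 were above every control mouse, and DKO mouse 4 was within the control range. The log2 fold change was 0.29 (standard error 0.11, 95% interval 0.04 to 0.55, unadjusted p = 0.0264 and adjusted p = 0.176 by the quasi-likelihood test of edgeR, n = 4 each). *Smc1a* (chrX:152016428-152061973, plus strand), its partner and the only one of the 10 genes on the X chromosome, was at 243, 248, 240 and 188 CPM in DKO mice, against 140, 186, 227 and 192 CPM in control mice. The same 3 DKO mice lay above the control range, and control mouse 1, with Y-linked reads, had the lowest level of the 8. The log2 fold change of *Smc1a* was 0.30 (95% interval -0.01 to 0.62, adjusted p = 0.267 from edgeR).

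*Rad21* (chr15:51962604-51991760, minus strand), the kleisin that separase cuts at anaphase, was the exception in direction. It was at 61.2, 76.9, 65.5 and 54.4 CPM in DKO mice, against 51.7, 62.8, 76.9 and 77.1 CPM in control mice. The groups overlapped almost fully, and the log2 fold change was -0.06 with a 95% interval from -0.38 to 0.26 (adjusted p = 0.869 from edgeR). Its sign turned in 4 of the 20 other settings, so no direction can be given for *Rad21*.

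**Figure D2:**
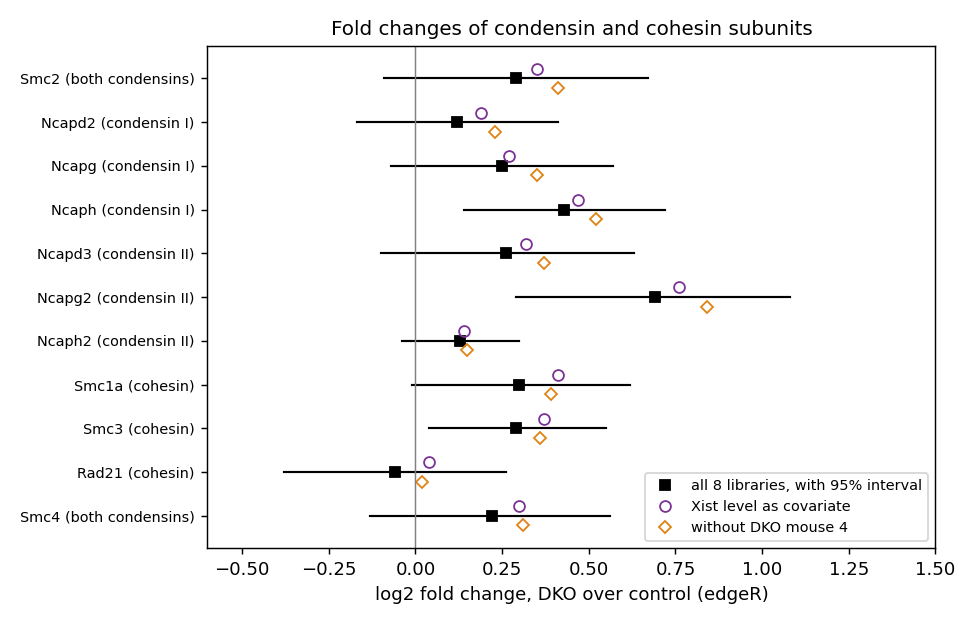
Log2 fold change of DKO over control cells for the 10 subunit genes and *Smc4*, with DKO to the right of the zero line. Squares with bars are edgeR's estimate and 95% interval over all 8 libraries, circles the estimate with the *Xist* level as a covariate, and diamonds the estimate without DKO mouse 4. The intervals of *Ncaph*, *Ncapg2* and *Smc3* lie above 0, *Ncapg2* has the largest estimate at 0.69, and *Rad21* moves from -0.06 to 0.04 with the covariate.

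Per exon length, the highest and lowest of the subunits were further apart than any of them was between genotypes. Levels per exon length (RPKM, CPM divided by the kilobases of exon) were computed from the deposited exon lengths, and *Ncaph2* had the highest mean of the 10 genes, with 66.1 ± 2.36 RPKM in DKO and 60.5 ± 3.77 RPKM in control cells (SD, n = 4 each). *Smc1a* followed with 57.9 ± 7.05 RPKM in DKO and 46.9 ± 9.07 RPKM in control cells, then *Smc3* with 53.8 ± 5.99 RPKM in DKO and 43.9 ± 5.53 RPKM in control cells. The condensin ATPase *Smc2* was at 31.6 ± 8.24 RPKM in DKO and 25.9 ± 3.54 RPKM in control cells, while *Smc4* was at 72.5 ± 17 RPKM in DKO and 62.4 ± 7.20 RPKM in control cells. Transcript levels of the ATPases that pair in condensin were thus unequal, with a *Smc2* to *Smc4* ratio of 0.406 to 0.446 in DKO and 0.35 to 0.456 in control mice, whereas the *Smc1a* to *Smc3* ratio was 1.01 to 1.14 in DKO and 0.972 to 1.18 in control mice.

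The other subunits followed with means from 27.5 RPKM for *Ncaph* to 5.78 RPKM for *Ncapd3* in DKO cells, and from 20.4 RPKM for *Ncaph* to 3.83 RPKM for *Ncapg2* in control cells. *Ncapg2* and *Ncapd3* were the lowest in both groups and changed places, with *Ncapg2* at 6.18 ± 1.44 RPKM in DKO and 3.83 ± 0.593 RPKM in control cells, and *Ncapd3* at 5.78 ± 1.04 RPKM in DKO and 4.82 ± 0.914 RPKM in control cells (SD, n = 4 each). Their ranges overlapped within each group, so this order is not beyond the spread. Ranges of neighbors in the order also overlapped in both groups for *Smc4* and *Ncaph2*, *Smc1a* and *Smc3*, *Smc2* and *Ncaph*, and *Rad21* and *Ncapd2*. Those of *Ncaph2* and *Smc1a*, and of *Smc3* and *Smc2*, did not overlap in either group.

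Condensin II was uneven in its transcripts. The level of *Ncaph2* was 9.27 to 15.5 times that of *Ncapg2* in DKO mice and 12.9 to 18.4 times in control mice, and 10.0 to 14.2 times that of *Ncapd3* in DKO mice and 11.3 to 16.0 times in control mice. The size of these ratios depends on the exon lengths used. *Ncapg2* was divided by 6604 bases, *Ncapd3* by 5503 and *Ncaph2* by 3343, whereas annotated transcripts of these genes (GENCODE M21) have 4684, 4675 and 3302 bases. The summed RPKM of *Ncapd3* and *Ncapg2* was 12.0 ± 2.39 in DKO and 8.65 ± 1.44 in control cells, against 78.0 ± 4.73 in DKO and 69.2 ± 4.74 in control cells when *Ncaph2* was included. The 3 condensin I genes summed to 54.3 ± 10.3 RPKM in DKO and 44.1 ± 1.99 RPKM in control cells, and the 3 cohesin genes to 130 ± 14.5 RPKM in DKO and 109 ± 17.7 RPKM in control cells (SD, n = 4 each). These sums are descriptions with no test, since the genes were chosen with results of these data known.

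Of 7 ratios between subunits or complexes, 1 did not overlap between the groups. *Rad21* relative to *Smc3* was 0.282, 0.381, 0.343 and 0.328 in DKO mice, against 0.395, 0.400, 0.438 and 0.455 in control mice, each a ratio of RPKM values. Every DKO mouse was thus lower than every control mouse in the kleisin relative to the ATPase. *Ncapg2* relative to *Ncapg* was 0.502, 0.480, 0.637 and 0.433 in DKO mice and 0.310, 0.341, 0.448 and 0.413 in control mice, where DKO mouse 4 fell below control mouse 3. Among single tested genes, 7.63% did not overlap on the higher side and 6.21% on the lower side. No such share was computed over other gene pairs, so how often a ratio separates the groups is not known. No test was made of either ratio, and the *Rad21* ratio was singled out after its values were seen.

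**Figure D3:**
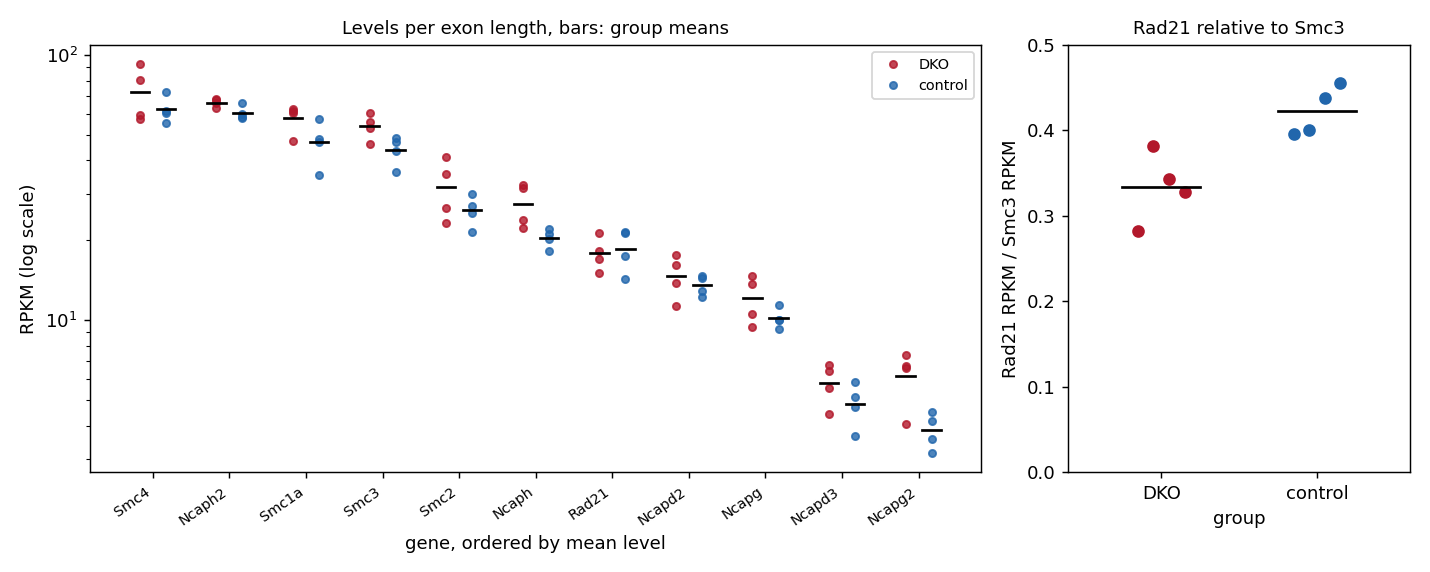
Left, RPKM on a log axis for the 10 subunit genes and *Smc4* in 4 DKO mice (red, left of each pair) and 4 control mice (blue), with bars at the group means and genes ordered by mean level from *Smc4* to *Ncapg2*. Right, the ratio of *Rad21* to *Smc3* RPKM in each mouse, with bars at the group means. The DKO mice lie at 0.282 to 0.381 and the control mice at 0.395 to 0.455.

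The subunit genes varied together across the DKO mice. Relative to the mean log2 CPM of the control mice, the median over the 10 genes was 0.45 in DKO mouse 1, 0.43 in DKO mouse 2, 0.17 in DKO mouse 3 and -0.03 in DKO mouse 4, against -0.06, -0.07, 0.14 and 0.10 in control mice 1 to 4. DKO mouse 4 was the lowest DKO mouse for 10 of 10 genes, whereas it was the lowest for 30% of all tested genes. DKO mouse 1 or 2 was the highest DKO mouse for all 10, with 4 and 6 genes in that order, against 22.2% and 26.1% of all tested genes. The median coefficient of variation of the 10 genes was 18.3% in DKO and 13.1% in control mice, while over all tested genes it was 12.7% in DKO and 16.4% in control mice. However, only 5 of the 10 genes varied more in DKO mice, as did 4693 of all 12714 tested genes. The 10 genes share their libraries and are not replicates, so these counts describe the mice and carry no test.

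**Figure D4:**
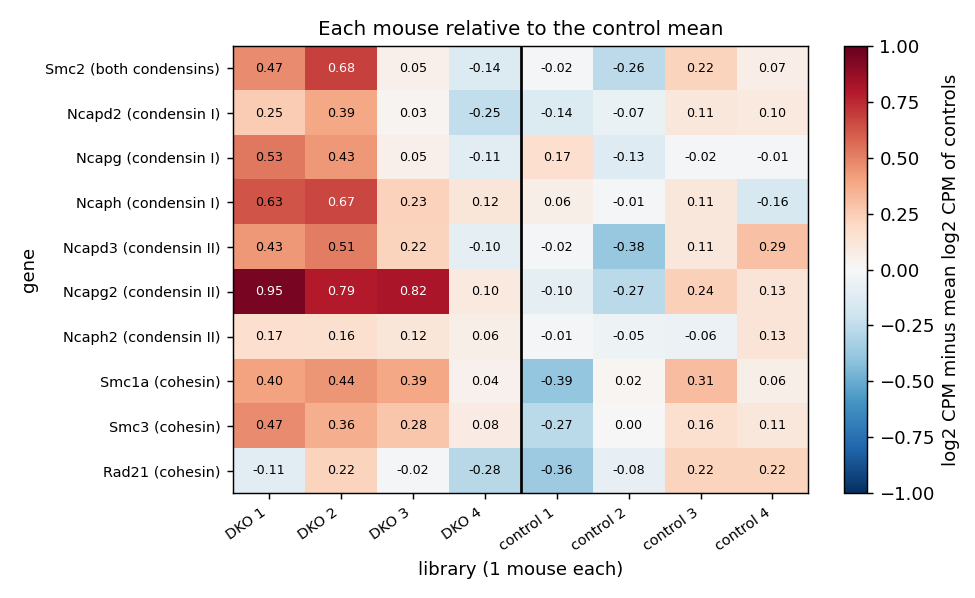
Log2 CPM of each subunit gene in each mouse minus the mean log2 CPM of the 4 control mice, with DKO mice left of the vertical line and red for higher levels. DKO mice 1 and 2 are above the control mean for all genes apart from *Rad21* in DKO mouse 1 (-0.11), and DKO mouse 4 lies between -0.28 and 0.12.

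The DKO mice with the lower medians were those with Y-linked reads. In libraries without such reads, 2 DKO and 3 control, DKO levels were above control levels with no overlap for 9 of 10 genes, *Rad21* being the exception, as for 20.7% of all tested genes. There *Ncapg2* averaged 46.0 CPM in DKO and 25.9 CPM in control mice (1.77-fold), *Ncaph* 86.1 CPM in DKO and 54.3 CPM in control mice (1.58-fold), and *Smc2* 212 CPM in DKO and 144 CPM in control mice (1.47-fold). In libraries with Y-linked reads, 2 DKO and 1 control, 6 of 10 genes did not overlap and were higher in DKO mice, where 40.4% of all tested genes were. In these *Ncapg2* was at 35.6 CPM in DKO mice and 23.4 CPM in the control mouse (1.52-fold), *Smc1a* at 214 CPM in DKO mice and 140 CPM in the control mouse (1.53-fold), and *Smc3* at 240 CPM in DKO mice and 176 CPM in the control mouse (1.37-fold). *Smc2* (0.985-fold) and *Ncapg* (0.872-fold) were not higher there. Whether the DKO effect differs between mice with and without Y-linked reads was not tested.

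With the *Xist* level as a covariate in the fit, 4 of the 10 genes passed the threshold: *Ncaph* (adjusted p = 0.0346), *Ncapg2* (0.0216), *Smc1a* (0.0446) and *Smc3* (0.0198), all by the quasi-likelihood test of edgeR. The number of all tested genes called higher also grew in that fit, to 558 of 12714, against 337 without the covariate. When the libraries with Y-linked reads were left out, *Ncapg* (adjusted p = 0.0328), *Ncaph* (0.0204) and *Ncapg2* (0.0326) passed in 2 DKO against 3 control libraries. Over all genes tested in those libraries, 322 of 13039 were called higher.

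Among the DKO mice, mice 1 and 2 had lower summed levels of neutrophil and macrophage markers than mice 3 and 4. Mice 3 and 4 were also the DKO mice with Y-linked reads, so among DKO mice these marker levels and Y-linked reads cannot be told apart. The summed level of 5 neutrophil markers was 207, 370, 1570 and 1330 CPM in DKO mice and 1960, 305, 348 and 1790 CPM in control mice, and 0 of 5 passed edgeR's test. The summed level of 8 monocyte and macrophage markers was 15.5, 11.1, 36.6 and 40.2 CPM in DKO mice and 39.4, 112, 37.2 and 51.5 CPM in control mice, all 8 with a log2 fold change below 0 and none past the threshold. For 5 T and NK cell markers the sum was at most 1.57 CPM in DKO and 3.18 CPM in control mice, and for 4 erythroid markers it was 4.9 to 13.5 CPM in DKO and 8.35 to 23.0 CPM in control mice, with *Hba-a1* and *Hbb-bs* at 0 in all libraries. The 6 stroma and endothelium markers summed to 50.1 to 60.5 CPM in DKO and 41.4 to 64.3 CPM in control mice. Most of this sum was *Pecam1*, at 47.7 to 58.7 CPM in DKO and 37.8 to 58.1 CPM in control mice. Only 2 of the 6 passed the low-count filter, *Pecam1* and *Cxcl12*. *Cxcl12* was lower in DKO cells, at low means of 1.56 CPM in DKO and 4.3 CPM in control cells (adjusted p = 0.0322 from edgeR), and *Pecam1* did not pass. The part of these cells in the subunit levels was not tested.

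S phase genes, which encode replication factors and nucleotide enzymes, were higher where the subunits were not called. Of 12 such genes 9 were higher in DKO cells and 0 were lower (quasi-likelihood test of edgeR, Benjamini-Hochberg adjusted, background 2.65% higher), with a median log2 fold change of 0.56. The called genes were the helicase loaders *Cdc6* (log2 fold change 0.85) and *Cdt1* (0.63), the helicase subunits *Mcm4* (0.78), *Mcm2* (0.67), *Mcm3* (0.66), *Mcm5* (0.58), *Mcm7* (0.53) and *Mcm6* (0.48), and *Rrm1* (0.44), a subunit of ribonucleotide reductase. When single mice were left out, *Mcm6* lost its call in 5 of 8 fits (adjusted p up to 0.0855 from edgeR) and *Rrm1* in 6 of 8 (up to 0.0815), while the other 7 kept theirs. The summed level of all 12 S phase genes, called or not, was 4570, 4320, 4300 and 3670 CPM in DKO mice. In control mice it was 3460, 2560, 2830 and 3120 CPM. The groups did not overlap, and DKO mouse 4 was the lowest DKO mouse here too. Of 12 mitosis genes 1 was higher, *Bub1b*, a kinase of the spindle checkpoint, at 79.8 ± 12.5 CPM in DKO and 51.6 ± 6.29 CPM in control cells (SD, n = 4 each, log2 fold change 0.63, adjusted p = 0.0224 from edgeR). The call was lost without DKO mouse 1 (adjusted p = 0.0755), DKO mouse 2 (0.07), control mouse 2 (0.0577) or control mouse 4 (0.0691). The other 11 did not pass, among them the spindle motor gene *Kif11* (log2 fold change 0.53, adjusted p = 0.109 from edgeR), the checkpoint kinase gene *Bub1* (0.31, adjusted p = 0.173) and the cyclin gene *Ccnb2* (-0.22, adjusted p = 0.166). Their summed level with *Bub1b* was 1220 to 1490 CPM in DKO and 1130 to 1420 CPM in control mice.

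Of 10 genes that work beside condensin in compaction, none passed the test, with 7 log2 fold changes above 0 and a median of 0.21. *Top2a*, the topoisomerase that untangles sister DNA on mitotic chromosomes, was at 230, 250, 204 and 156 CPM in DKO mice and at 143, 122, 161 and 157 CPM in control mice (log2 fold change 0.52, adjusted p = 0.0645 from edgeR). *Aurkb*, the kinase of the chromosomal passenger complex, which promotes condensin I loading, was at 129, 151, 126 and 105 CPM in DKO mice and at 113, 82.3, 89.9 and 83.8 CPM in control mice (log2 fold change 0.47, adjusted p = 0.0669 from edgeR). In both genes DKO mice 1 to 3 were above all control mice and DKO mouse 4 was not, the same layout as *Ncapg2*, *Smc1a* and *Smc3*. *Kif22*, a chromosome-binding kinesin gene, was at 109 ± 19.4 CPM in DKO and 83.4 ± 11 CPM in control cells (SD, n = 4 each, log2 fold change 0.39, adjusted p = 0.137 from edgeR). *Mcph1*, which restrains condensin II in interphase, was at 12.5, 14, 15.9 and 10.3 CPM in DKO mice and at 19.1, 12.4, 13.1 and 17.9 CPM in control mice, with a log2 fold change of -0.25 that did not pass.

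Of 12 genes that load, stabilize, modify or position cohesin, 0 passed edgeR's test, 0 had an unadjusted p under 0.05, and the median log2 fold change was 0.06. *Nipbl*, the loader that also drives loop extrusion, was at 172, 206, 164 and 152 CPM in DKO mice and at 142, 238, 264 and 249 CPM in control mice. Control mice 2 to 4 were above every DKO mouse and control mouse 1 was below them all, and the log2 fold change was -0.37 (adjusted p = 0.274 from edgeR). Without control mouse 1 the fall of *Nipbl* passed the threshold, with a log2 fold change of -0.53 and an adjusted p of 0.0174, while the other 19 settings gave 0.0802 to 0.466. *Esco2*, which acetylates SMC3 during replication, had a log2 fold change of 0.36 and *Cdca5*, which encodes sororin, the guard of cohesion, one of 0.26, and neither passed. The same held for *Stag1*, which encodes a cohesin-associated subunit (0.25). Of 4 genes of sister separation none passed either. Among them *Pttg1*, which encodes securin, the inhibitor of separase, was at 76.3, 78.5, 87.7 and 91.6 CPM in DKO mice and at 142, 71.6, 137 and 84.3 CPM in control mice (log2 fold change -0.38, adjusted p = 0.318 from edgeR), and *Espl1*, which encodes separase, had a log2 fold change of 0.07. The shugoshin genes *Sgo2a* and *Sgo1*, whose proteins protect cohesin at centromeres, had log2 fold changes of 0.25 and 0.11.

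In the longest annotated 3' UTR of GENCODE M21, none of the 10 subunit genes held an 8mer, 7mer-m8 or 7mer-A1 match to the deleted microRNAs, while 27.9% of 11804 tested genes with a 3' UTR held at least 1. The same was true of the shortest annotated 3' UTR, where 16.3% of genes held one. The median length of the longest 3' UTR was 940 bases over the 10 genes and 1134 bases over all. A 6mer, GCTGCT, stood in the 3' UTR of *Ncaph2*, with 3 matches in 1375 bases, and in none of the other 9, against 44.9% of all genes. The 3' UTR of *Ncapg2* searched was 996 bases long, in a transcript of 4684 bases. The deposited exons of *Ncapg2* cover 6604 bases, so sequence outside that transcript was not searched. That these letters are missing from the annotated windows says nothing about other kinds of pairing.

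Matches lay instead in coding sequence, in 7 of the 10 genes, where 36.9% of all tested genes with a 3' UTR had at least 1. The coding sequences of the 7 genes were 2196 to 4179 bases long. Coding lengths of all tested genes were not compared, so these shares are not adjusted for length. The 8mers of *Smc3*, the only ones among the 10 genes, and the matches of *Ncapg2*, which had the largest fold change, are shown. A further match of *Smc3*, a 7mer-A1, has a window across an exon junction and is not shown. The match is in capitals and the sequence is that of the plus strand, on which both genes lie.
*Smc3* coding 8mer at chr19:53625084-53625113: gaaaagacagatTGCTGCTAttcacaagga
*Smc3* coding 8mer at chr19:53628080-53628109: acaacaagcactTGCTGCTAaaagagaaga
*Ncapg2* coding 7mer-m8 at chr12:116414849-116414878: ctgcatttatcaTGCTGCTgaggaggagtc
*Ncapg2* coding 7mer-m8 at chr12:116427762-116427791: cttttgtggattTGCTGCTgaagatcaagg
*Smc1a*, *Ncaph2* and *Rad21* had no coding match, and their log2 fold changes were 0.30, 0.13 and -0.06, against 0.12 to 0.69 in the 7 genes with one. A match in these letters is a description and not a site shown to be used.

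The promoters of 9 of the 10 genes were in the RefSeq set of GRCm38.p6, which spans 250 bases before to 50 bases after each start, and 9963 tested genes had one. Where a gene had several starts the first entry was used, for the 10 genes and for all others. The promoters were searched on both strands for sequence motifs known from cell cycle genes. The CHR element TTTGAA, bound by the MuvB complexes that govern genes of G2 and mitosis, stood in 4 of the 9 (*Smc2*, *Ncapd2*, *Ncapg* and *Ncapg2*), against 12.0% of all promoters. The E2F motif TTTCCCGC stood in 3 of the 9 (*Ncapg*, *Ncapg2* and *Smc1a*), against 2.17% of all, and the E2F motif TTTGGCGC in 1, *Ncapd2*, against 1.09%. A CCAAT box stood in 4 of the 9, against 39.3% of all. *Ncapg2*, *Ncapg* and *Ncapd2* held both a CHR and an E2F motif, with log2 fold changes of 0.69, 0.25 and 0.12, and these stretches are shown on the strand of the gene, with the motif or its reverse complement in capitals.
*Ncapg2* CHR at chr12:116405406-116405435: tacgcgggtgtgTTTGAAtctggtccgagc
*Ncapg2* E2F at chr12:116405425-116405454: ctggtccgagcGCGGGAAActatgggtctg
*Ncapg* CHR at chr5:45669883-45669912: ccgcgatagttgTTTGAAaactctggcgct
*Ncapg* E2F at chr5:45669945-45669974: tgtcggaagccGCGGGAAActgagtcctcc
*Ncapd2* CHR at chr6:125191692-125191721: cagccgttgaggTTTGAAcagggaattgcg
*Ncapd2* E2F at chr6:125191576-125191605: ccatctcgttgTTTGGCGCgtatcctgccc
Relative to the RefSeq start, the first base of the CHR lay 18 bases before it in *Ncapg2*, 30 in *Ncapg* and 123 in *Ncapd2*. The deposited exons of *Ncapg2* begin earlier, at chr12:116405402, so its CHR lies after that start. *Ncapg2* held a further match to TTTCCCGC, 249 bases before the RefSeq start. *Smc3*, *Ncaph*, *Ncapd3* and *Ncaph2* had neither a CHR nor an E2F motif of these letters in that window, and their log2 fold changes were 0.29, 0.43, 0.26 and 0.13. A second start of *Ncapd3* (chr9:27060166-27060465) held 1 CHR match, which is not in the count. These matches are descriptions, and binding was not measured in these cells.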

How the data were processed

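RNA of sorted pro-B cells (4 DKO and 4 control mice, 1 library each) was amplified by SMART-seq. The authors deposited raw counts per gene after Trimmomatic, STAR and featureCounts, for which no source used here gives a version or a strand setting. GRCm39 is named in the processing notes, yet 99.7% of 24143 genes lie where GENCODE M21 places them on GRCm38, and coordinates are therefore given on GRCm38.

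Libraries were scaled by TMM and low genes removed by filterByExpr (at least 10 counts, and 15 in total). Genotype was the only term of the fit in edgeR 4.0.16 (R 4.3.3), whose quasi-likelihood test was adjusted after Benjamini-Hochberg, with 0.05 as the threshold. Standard errors and 95% intervals come from that fit. At this depth the spread between mice limits the comparisons, and same-group libraries differed beyond sampling noise. The subunits, the related gene lists and the alternatives (DESeq2 1.42.0 and limma 3.58.1 among them) were chosen with earlier results of these data known. All 10 subunits and *Smc4* were named, and in each related list the genes past the threshold or, where fewer than 4 passed, those with the smallest p. *Smc5*, *Smc6*, *Rec8*, *Rad21l*, *Kit*, *Il7r*, *Pecam1* and *Cxcl12* were named in addition after their values were seen. Seed matches and promoter motifs were searched as exact letters.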

Additional observations from a re-analysis of the deposited data

Results flagged for a closer look

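*Smc1a* in DKO mouse 4 was at 188 CPM, against 240 to 248 CPM in the other 3 DKO mice. The gap to its nearest neighbor was 0.86 of the group's whole range, above Dixon's 95% critical value for 4 samples. This was the only one of 22 groups examined (10 subunit genes and *Smc4*, in DKO and control mice) to stand out in this way, and chance alone gives about 1 in 20. No explanation for it was tested.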

How the results depend on the processing

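Over 20 other settings, 8 of them leaving out 1 mouse, 0 subunit genes were called lower in each, and the number called higher was 0 with all 8 libraries in the reported test. It was 1 in the likelihood ratio test, without the low-count filter (*Ncapg2*, adjusted p = 0.0468) and in a robust fit (*Ncapg2*, adjusted p = 0.0483), 2 in DESeq2, 3 without the libraries with Y-linked reads and 4 with the *Xist* covariate. Leaving out each mouse gave 0 or 1 subunit gene, the 1 being *Ncapg2* without DKO mouse 4 (log2 fold change 0.84). Over these settings the log2 fold change was 0.59 to 0.84 for *Ncapg2*, past the threshold in 7 of 20, and 0.34 to 0.67 for *Ncaph*, past it in 3 of 20. Over all tested genes, 337 higher and 245 lower became 519 and 461 in the likelihood ratio test, 674 and 568 in DESeq2, and 558 and 506 with the *Xist* covariate, in that order, and the cause was not tested. Without the libraries with Y-linked reads 322 were higher and 252 lower. Without the low-count filter these numbers were 321 and 239, and in the robust fit 351 and 253. Leaving out 1 mouse gave 142 to 493 higher and 84 to 398 lower genes, the most without control mouse 1.

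Without 1 mouse the log2 fold change was -0.16 to 0.02 for *Rad21* and -0.04 to 0.22 for *Espl1*. The sign of *Rad21* turned to 0.04 with the *Xist* covariate, 0.02 without DKO mouse 4, 0.02 without control mouse 3 and 0.01 without control mouse 4. That of *Espl1* turned to -0.04 without DKO mouse 1, -0.03 without DKO mouse 2 and -0.03 without control mouse 4. The cause was not tested.

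Replicate numbers did not pair the mice: deviations of same-numbered mice correlated across genes at -0.255 to 0.0921, and 0 of 4 numbers exceeded 0.1. With the replicate block 94 genes were higher and 54 lower, and 0 subunit genes passed (smallest adjusted p = 0.14 from edgeR). *Bub1b* (adjusted p = 0.0937), *Cdt1* (0.0531), *Mcm5* (0.0613), *Mcm7* (0.0731), *Mcm6* (0.074) and *Rrm1* (0.0819) did not pass with the block, which leaves 4 of the 9 called S phase genes.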

Other observations

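The third SMC complex, SMC5/6, which acts in DNA repair, was also measured. Of its 9 genes none passed edgeR's test, none had an unadjusted p under 0.05, and the median log2 fold change was 0.07. Those with the smallest p were *Slf1*, with a log2 fold change of 0.25, *Nsmce1* (0.24), *Nsmce4a* (0.14) and *Nsmce3* (-0.13). *Smc6*, one of its ATPases, was at 196, 208, 144 and 137 CPM in DKO mice and at 142, 152, 192 and 165 CPM in control mice, so DKO mice 1 and 2 were the highest of the 8, as for *Smc2*. *Smc5*, its partner, was at 49.6, 51.3, 44.2 and 39.5 CPM in DKO mice and at 45.7, 45.1, 53.5 and 52.7 CPM in control mice, where this layout was not seen.

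The cohesin subunits of meiosis were near or at 0 CPM. *Stag3* was at 1.53, 2.46, 1.62 and 0.858 CPM in DKO mice and at 1.75, 0, 0.985 and 0.639 CPM in control mice, and it did not pass (adjusted p = 0.56 from edgeR, Benjamini-Hochberg adjusted). *Rec8*, the meiotic kleisin, had no counts in any DKO library and 0.141 to 0.209 CPM in the control libraries, too few to be tested, and *Rad21l* had 0 in all 8.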
